A study of Homo sapiens with 2 samples.

Results

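To examine whether PCLO and SHANK3 stand alone or belong to a family of raised genes in REH cells, 9 genes for scaffold proteins of the synapse were followed through RNA sequencing data of REH and 697, a pair of human leukemia cell lines of B-cell precursor type (BCP-ALL). The genes were listed by name (PCLO, BSN, SHANK1, SHANK2, SHANK3, RIMS1, RIMS2, ERC1 and ERC2) and matched to their Ensembl IDs, and all 9 were among the 57773 gene IDs of the files. PCLO and SHANK3 were chosen by their read counts and REH to 697 ratios in these same libraries, and the others as their relatives, so the difference of PCLO and SHANK3 is a description and not a finding of its own. REH is positive for ETV6/RUNX1 with its other ETV6 allele deleted, whereas 697 lacks this fusion. Both lines were grown in the same medium without a treatment that differed between them. Each line is represented by 1 library, made from extracted total RNA. No statistical test of the lines was therefore possible, and the spread between cultures is unknown.

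Piccolo (PCLO) and bassoon (BSN) are related giant proteins that organise the presynaptic active zone, the membrane patch at which neurotransmitter vesicles are released. RIM proteins (RIMS1, RIMS2) and ELKS/CAST proteins (ERC1, ERC2) work in the same matrix, where they dock and prime vesicles and anchor calcium channels. SHANK proteins are scaffolds on the other side of the synapse, in the postsynaptic density, and link glutamate receptor complexes to the actin cytoskeleton. Most of these genes are known for expression in brain, while ERC1 is expressed in many tissues.

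The promoters of the members that differed most between the libraries are shown first, as the annotated start regions of these genes. Start sites were not measured here. Each window was taken from RefSeq on GRCh38.p14, reads 5′ to 3′ on the strand of the gene and ends before the first transcribed base of both RefSeq and GENCODE 44. Capitals mark the letters GGAA or TTCC, the core of ETS factor motifs on either strand, and TGTGGT or ACCACA, a core of RUNX motifs on either strand. The PCLO window is chr7:83162931-83163134 (minus strand), the SHANK3 window is chr22:50672573-50672822 (plus strand) and the BSN window is chr3:49554227-49554476 (plus strand).
PCLO: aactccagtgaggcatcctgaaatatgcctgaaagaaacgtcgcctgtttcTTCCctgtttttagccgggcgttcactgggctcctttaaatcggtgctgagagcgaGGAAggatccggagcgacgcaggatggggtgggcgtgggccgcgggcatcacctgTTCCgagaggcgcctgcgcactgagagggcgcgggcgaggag
SHANK3: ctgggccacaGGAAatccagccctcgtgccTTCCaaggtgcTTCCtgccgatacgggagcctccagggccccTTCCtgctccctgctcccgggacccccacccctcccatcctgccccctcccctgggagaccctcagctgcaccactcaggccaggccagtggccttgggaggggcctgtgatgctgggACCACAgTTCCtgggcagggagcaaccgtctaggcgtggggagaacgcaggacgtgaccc
BSN: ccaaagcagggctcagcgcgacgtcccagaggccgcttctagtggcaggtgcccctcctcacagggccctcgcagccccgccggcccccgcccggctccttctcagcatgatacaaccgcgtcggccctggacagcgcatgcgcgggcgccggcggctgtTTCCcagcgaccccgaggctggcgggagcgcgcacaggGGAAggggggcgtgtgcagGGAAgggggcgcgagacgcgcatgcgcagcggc
The PCLO window (204 bases) held 3 GGAA cores, that of SHANK3 (250 bases) held 5 and that of BSN (250 bases) held 3. At least 1 GGAA core was present in 88.6% of 35116 RefSeq promoter windows at the length used for PCLO and in 92.7% at 250 bases. TGTGGT was found once, in the SHANK3 window, with its first base 60 bases before the RefSeq start, and 11.0% of all windows of that length held it. TGCGGT, another RUNX core that was searched on both strands, was in none of the 3 windows. The share of G and C was 61.3% for PCLO, 68.4% for SHANK3 and 74.4% for BSN, beside medians of 57.4% and 58.0% over all windows of the matching length. CpG dinucleotides numbered 18 for PCLO, 30 for BSN and 8 for SHANK3, against medians of 8 at the length of PCLO and 11 at 250 bases. The RefSeq start of SHANK3 lies 1592 bases upstream of the start of the GENCODE gene, so this window need not be the promoter in use. These matches are letters in a window, and binding was not measured here.

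The REH library held 45188375 reads in genes and the 697 library 41097497, which were 70.7% and 69.7% of all reads. Expression is given as CPM, depth-normalized read counts with library totals scaled by edgeR's TMM (trimmed mean of M-values), and 3 reads, taken as the smallest level that the depth can show, correspond to 0.0597 CPM in REH and 0.0812 CPM in 697. Each ratio is REH over 697 on the log2 scale after 0.5 reads were added to each count, and its interval is an exact 95% interval that covers counting error only. Genes were compared when either library held 10 or more of their reads (19145 genes), and a gene was called higher in a line when its log2 ratio reached 2 in absolute value. Reads fell evenly on both strands (50.1% and 50.2% on the strand of the gene), so a gene cannot be told apart from an antisense partner where they overlap. Of 15 B-lineage marker genes 14 were found by their symbol, of which 13 reached 10 reads in REH and 14 in 697. The exception in REH was VPREB1, a surrogate light chain gene, with 3 reads against 10039 in 697.

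Of the 9 members, 5 reached 10 reads in either library. Of these, 2 were higher in REH (PCLO and SHANK3), 1 was higher in 697 (BSN), and SHANK1 and ERC1 were not past the threshold. Over all genes compared, the corresponding shares were 12.5% for REH and 8.15% for 697. For protein-coding genes they were 10.9% and 7.17%. SHANK2, RIMS1, RIMS2 and ERC2 had between 0 and 6 reads in each library. The median log2 ratio of the 5 members was -0.01, that of the 3 left without PCLO and SHANK3 was -0.76, and that of all genes compared was 0.05. The 7 members other than PCLO and SHANK3 together had 160 CPM in REH and 233 CPM in 697. Most of both sums came from SHANK1 (88.9 CPM in REH and 151 in 697) and ERC1 (70.6 and 71.1 CPM). The members thus did not differ in a common direction in these libraries.

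**Figure D1:**
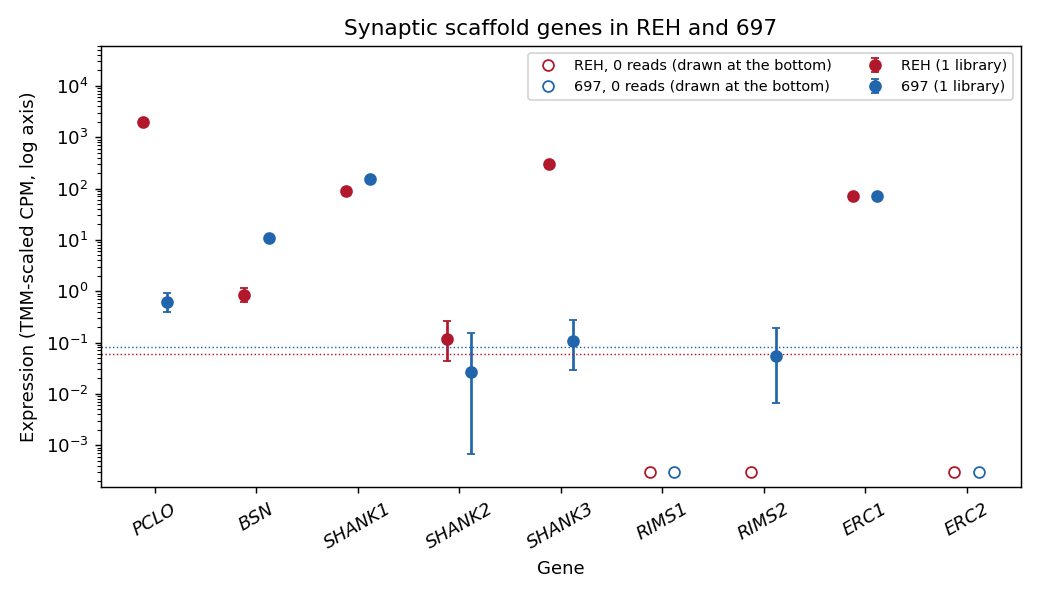
Expression of the 9 scaffold genes (horizontal axis) as TMM-scaled CPM on a log axis, in REH (red) and 697 (blue), with exact 95% counting intervals as bars, open symbols at the bottom for 0 reads, and dotted lines at the level of 3 reads in each library. PCLO (1979 CPM) and SHANK3 (299 CPM) are high in REH alone, SHANK1 and ERC1 lie between 70.6 and 151 CPM in both lines, and the remaining members are low or at 0 in at least 1 line.

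Among the presynaptic members, PCLO (chromosome 7, 82754012 to 83162930, GRCh38) had 99477 reads in REH and 23 in 697. This is 1979 CPM in REH (interval 1967 to 1991) and 0.623 CPM in 697 (interval 0.395 to 0.934). The log2 ratio was 11.60 (interval 11.05 to 12.29), which ranked 18 among all genes compared by the ratio itself and 1 by its lower bound. PCLO is a long gene, with 22.9 kb of exon, and long transcripts gather more reads. Per kb of exon its level in REH was 86.5 CPM per kb, beside a median of 5.51 over protein-coding genes that reached 10 reads, and it ranked 212 of 19208 protein-coding genes instead of 11 by CPM. In 697 its 23 reads correspond to 0.0272 CPM per kb.

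BSN, the closest relative of PCLO, went in the opposite direction. BSN (chromosome 3, 49554477 to 49671549) had 42 reads in REH and 395 in 697, or 0.836 and 10.7 CPM. The log2 ratio was -3.66 (interval -4.17 to -3.22), which is a 12.7-fold higher level in 697. Even in 697 its level per length was low, at 0.658 CPM per kb of exon against a median of 6.19 over protein-coding genes that reached 10 reads. In REH, PCLO exceeded BSN 1682-fold per kb of exon, whereas in 697 the ratio of PCLO to BSN was 0.0413. The lncRNA BSN-DT, which starts beside BSN in the other direction, had 1 read in REH and 2 in 697.

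ERC1 (chromosome 12, 990509 to 1495933), which also serves vesicle traffic outside neurons, was found at nearly the same level in both lines. It had 3548 reads in REH and 2626 in 697, or 70.6 and 71.1 CPM, with a log2 ratio of -0.01 (interval -0.08 to 0.06). Without TMM scaling this ratio became 0.30, while the median of all genes compared became 0.36. Its paralog ERC2 had 0 reads in both libraries. RIMS1 had 0 reads in both as well, and RIMS2 had 0 reads in REH and 2 in 697, so neither was above the level of 3 reads. Of the active zone members, therefore, PCLO alone exceeded ERC1 in REH, and ERC1 was the most abundant of them in 697.

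On the postsynaptic side, SHANK3 (chromosome 22, 50674415 to 50733212) had 15048 reads in REH and 4 in 697, or 299 CPM (interval 295 to 304) and 0.108 CPM (interval 0.0295 to 0.277). The log2 ratio was 11.26 (interval 10.08 to 13.31), which ranked 25 by the ratio itself and 5 by its lower bound. The 697 level rests on 4 reads and the size of the ratio is accordingly uncertain. SHANK1 (chromosome 19, 50659255 to 50719802) was expressed in both lines, with 4467 reads in REH and 5577 in 697, or 88.9 and 151 CPM. Its log2 ratio of -0.76 (interval -0.82 to -0.71) was not past the threshold, and without TMM scaling it was -0.46. SHANK2 had 6 reads in REH and 1 in 697, too few to be compared. The ratio of these reads was 1.67 on the log2 scale with an interval from -0.90 to 7.66. Its antisense genes SHANK2-AS1 and SHANK2-AS2 had 0 reads in both libraries, and SHANK2-AS3 had 0 in REH and 1 in 697.

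Levels were compared between members per kb of exon. In REH the order was PCLO (86.5 CPM per kb), SHANK3 (20.9), SHANK1 (8.47), ERC1 (4.46) and BSN (0.0514). In 697 it was SHANK1 (14.4 CPM per kb), ERC1 (4.49), BSN (0.658), PCLO (0.0272) and SHANK3 (0.00758). SHANK1 was thus the SHANK gene with the most reads in 697, and it was second to SHANK3 in REH at a SHANK1 to SHANK3 ratio of 0.404 per kb of exon, or 0.247 per kb of the longest annotated transcript. Summed over the 3 SHANK genes, the level was 29.4 CPM per kb in REH and 14.4 CPM per kb in 697, a smaller gap than that of SHANK3 alone. The order did not change when CPM or the length of the longest annotated transcript was used. Among all reads of the 9 members, PCLO took 81.1% in REH and SHANK3 12.3%, while in 697 SHANK1 took 64.6% and ERC1 30.4%. With 1 library per line, whether neighbours in this order differ beyond the spread of cultures is unknown.

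**Figure D2:**
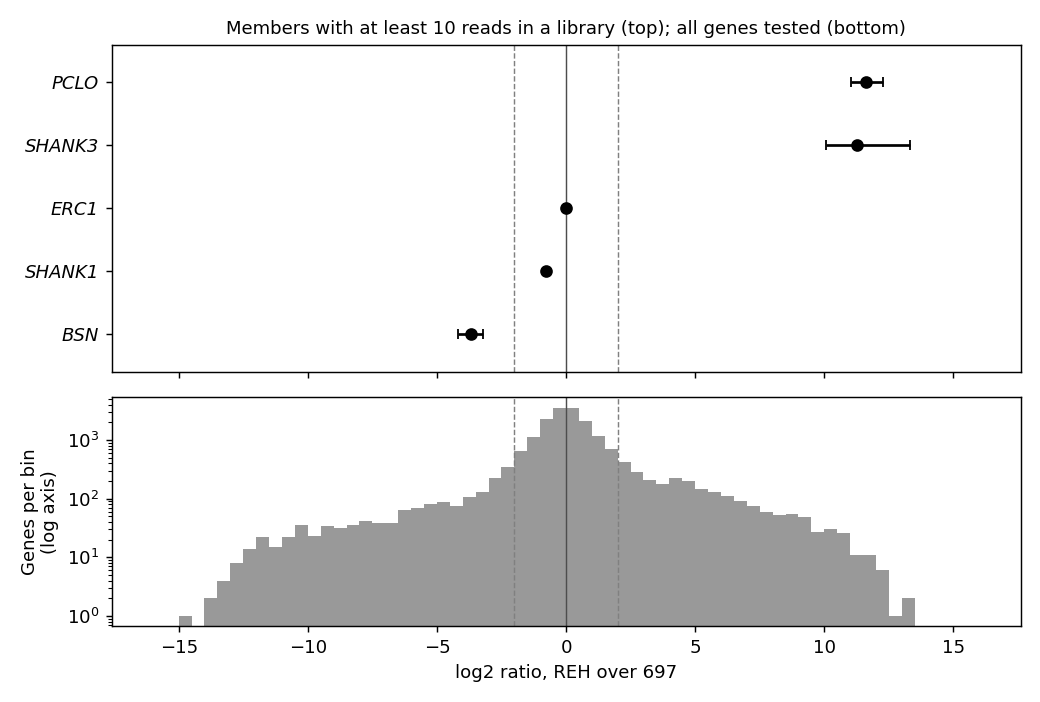
Log2 ratio of REH over 697 for the 5 members that reached 10 reads (top, points with exact 95% counting intervals) above the distribution of the ratio over all 19145 genes compared (bottom, genes per bin on a log axis), with dashed lines at the threshold of 2. PCLO (11.60) and SHANK3 (11.26) lie at the far right edge of the distribution, ERC1 (-0.01) and SHANK1 (-0.76) lie within the dashed lines, and BSN (-3.66) lies to the left.

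The reads of the members were inspected for their strand. In REH, 48.8% of PCLO reads (interval 48.5% to 49.1%), 50.1% of SHANK3 reads (49.3% to 50.9%), 50.3% of SHANK1 reads (48.8% to 51.8%) and 48.6% of ERC1 reads (47.0% to 50.3%) lay on the strand of the gene. The corresponding share of BSN reads in 697 was 57.0% (51.9% to 61.9%). The intervals of PCLO in REH and BSN in 697 did not include the shares of the whole libraries. In GENCODE 44, no other annotated exon overlaps an exon of PCLO or BSN. The stretches shared with a gene on the opposite strand are 56 bases of the SHANK1 exons, 100 bases for ERC1, 104 for SHANK3, 171 for SHANK2 and 278 for ERC2.

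**Figure D3:**
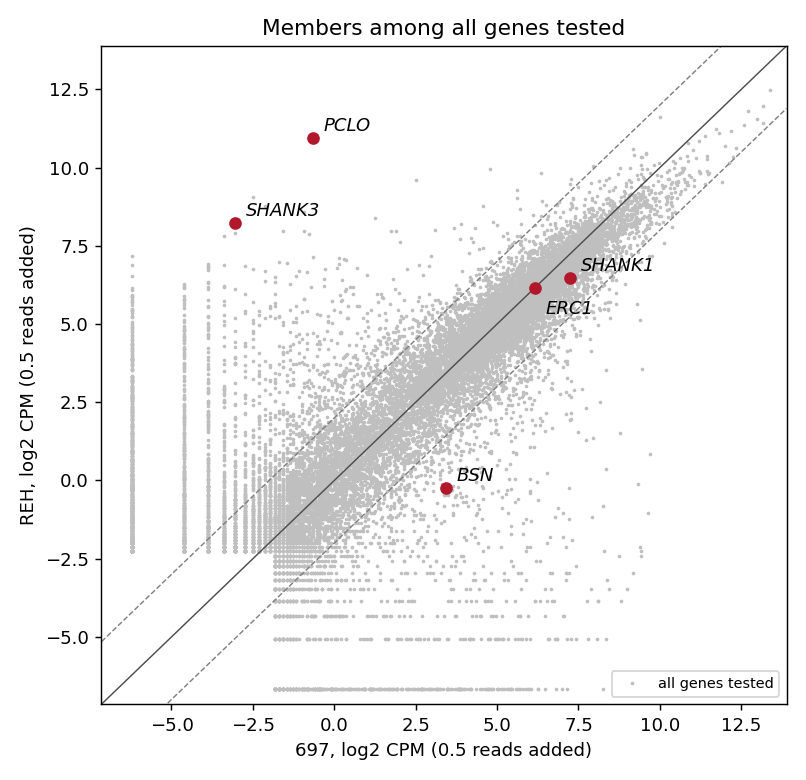
Log2 CPM of all 19145 genes compared (grey) in 697 (horizontal axis) and REH (vertical axis), both with 0.5 reads added, with the 5 members that reached 10 reads in red, the line of equal levels, and dashed lines at the threshold of 2. PCLO and SHANK3 stand far above the upper dashed line, SHANK1 and ERC1 lie between the dashed lines, and BSN lies below the lower one.

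Next, the protein-coding genes with the levels most like those of PCLO and SHANK3 in both libraries were sought by their distance in log2 CPM, out of 13488. For PCLO these were DOCK8 (distance 2.38), MFAP4 (2.64) and IGF2BP1 (2.65). DOCK8, a guanine nucleotide exchange factor of lymphocytes, had 19251 reads in REH and 19 in 697. MFAP4, a gene of the extracellular matrix, had 21764 and 8 reads, and IGF2BP1, an RNA-binding protein gene active in the embryo, had 26904 and 6. For SHANK3 the nearest were DSC3 (distance 0.31), GABRA4 (0.56) and IGF2BP1 (0.99). DSC3, a desmosomal cadherin, had 12101 reads in REH and 4 in 697, and GABRA4, a GABA receptor subunit, had 11242 and 3. Levels in 2 libraries give no further information on a relation between these genes.

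The 5 nearest protein-coding genes on each side of PCLO, SHANK3 and BSN were then compared, with distances counted between gene ends. Of the 10 neighbours of PCLO, 5 reached 10 reads. The axon guidance gene SEMA3E, the nearest upstream (200 kb), had 0 reads in both libraries. CACNA2D1, a calcium channel subunit gene and the nearest downstream (310 kb), had 174 reads in REH against 1 in 697, a log2 ratio of 6.42 (interval 4.50 to 12.31). HGF, the gene of hepatocyte growth factor (984 kb downstream), had 44 and 0 reads. Farther upstream SEMA3D had 926 reads in REH and 0 in 697, and ELAPOR2 had 132 and 3. SEMA3A, between SEMA3E and SEMA3D, went the other way, with 91 reads in REH against 1777 in 697, a log2 ratio of -4.72 (interval -5.05 to -4.43). All 5 neighbours of PCLO that were compared were called, 4 higher in REH and 1 higher in 697, beside shares of 12.5% and 8.15% over all genes. The 4 higher in REH had at most 3 reads in 697 and reached 10 reads through REH alone. Such genes are readily called, so these numbers do not show a pattern of the region. All 5 were far below PCLO, at 18.4 CPM or less in REH.

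SHANK3 lies near the end of its chromosome, and only 2 protein-coding genes were found downstream of it. ACR, an acrosomal protease gene 4.98 kb downstream, had 21 reads in REH and 0 in 697. ARSA (log2 ratio 0.24), MAPK8IP2 (0.32), RABL2B (0.46), CHKB (0.77) and CPT1B (0.78) were not past the threshold, and each had 104 or more reads in both libraries. CHKB-CPT1B, a read-through gene of the same stretch, had 0 reads in both. Reads that fall on overlapping genes are left out of the counts, so this 0 need not mean absence. For BSN, 9 neighbours reached 10 reads and none was past the threshold. The nearest were APEH, 2.46 kb downstream (2640 reads in REH and 5611 in 697, log2 ratio -1.53), and DAG1, 18.9 kb upstream (894 and 1276 reads, -0.96). The others were AMT (-1.80), RHOA (-1.38), NICN1 (-1.10), TCTA (-0.68), RNF123 (-0.58), GMPPB (-0.19) and MST1 (0.12). BSN had the lowest log2 ratio of its neighbourhood and SHANK3 the highest of its own. Neighbours were listed only for members past the threshold, so these positions largely follow from that choice. All compared neighbours of BSN except MST1 also had a log2 ratio below 0.

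**Figure D4:**
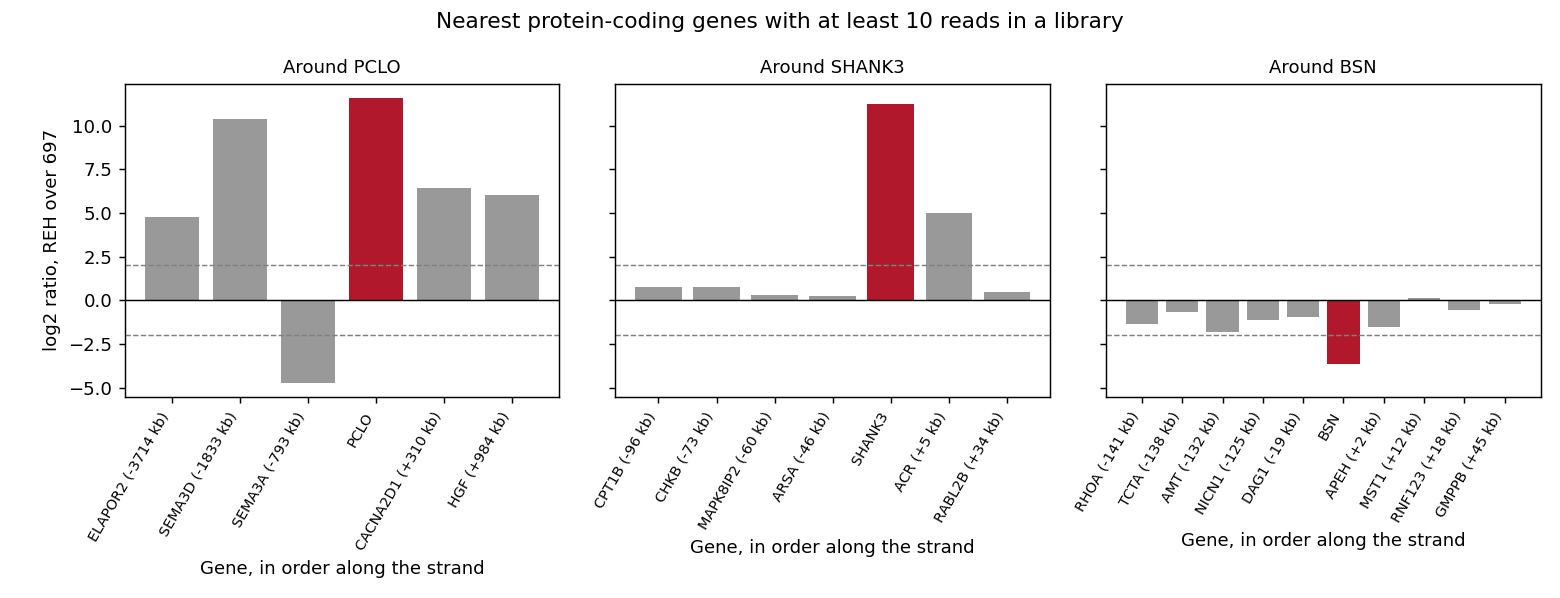
Log2 ratio of REH over 697 (bars) for PCLO, SHANK3 and BSN (red) and for their nearest protein-coding genes that reached 10 reads (grey), in order along the strand of the member, with the distance in kb in brackets (minus for upstream) and dashed lines at the threshold of 2. Around PCLO the bars point both ways, around SHANK3 they are below 1 except for ACR, and around BSN no neighbour passes the threshold. The bars of SEMA3D, HGF and ACR, which had 0 reads in 697, take their size from the 0.5 reads added.

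To see whether the partners of these scaffolds were raised, 4 wider lists of synaptic genes that hold none of the members were described. Of 24 further active zone genes 16 were compared. Of these, 5 (31.2%) were higher in REH and 2 (12.5%) in 697, beside 12.5% and 8.15% over all genes compared, and the median log2 ratio was 0.33. The most abundant was TSPOAP1, which encodes the RIM-binding protein RIM-BP1, with 1000 CPM in REH and 27.4 CPM in 697 from 50259 and 1011 reads (log2 ratio 5.19, interval 5.10 to 5.28). NRXN2, a presynaptic adhesion gene, had 3118 and 92 reads (4.63), UNC13A, a vesicle priming gene, had 2630 and 93 (4.37), and RIMBP2 had 60 and 1. The fifth was the neurexin gene NRXN3 (50 and 1 reads), which is named beyond the rule for named genes because the count is small. Higher in 697 were PPFIA4, a liprin gene (453 and 5759 reads, log2 ratio -4.11), and APBA1, an adaptor gene (8 and 2919 reads, -8.87). RIMBP2, NRXN3 and APBA1 reached 10 reads in 1 line only, and such genes are readily called. Whether the shares of this list differ from those over all genes was not tested. RIMS3, a short relative of the RIM genes, had 4366 and 8141 reads (86.9 and 220 CPM, log2 ratio -1.34), and PPFIA1 had 4413 and 2361 (0.46), both not past the threshold. Reads of a RIM gene were thus found in both lines for RIMS3, although RIMS1 and RIMS2 were at the level of 3 reads or below.

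Of 21 genes for vesicle fusion 12 were compared, with 2 (16.7%) higher in REH, 1 (8.33%) higher in 697 and a median log2 ratio of 0.50. They included RAB3D, a secretory vesicle GTPase gene (130 and 22 reads, log2 ratio 2.09, and 1.88 with 5 reads added), and, in 697, the calcium sensor gene SYT1 (461 and 3174 reads, -3.23). VAMP1 (log2 ratio 0.12) and the vesicle protein gene SV2A (0.69) were the most abundant of the others. Of 33 further postsynaptic density genes 26 were compared, with 3 (11.5%) higher in REH, 4 (15.4%) higher in 697 and a median of -0.14. Higher in REH were DLGAP2 (294 and 10 reads, log2 ratio 4.37) and DLGAP1 (24 and 0 reads), whose proteins bind SHANK proteins, and BAIAP2 (161 and 28 reads, 2.06). In the other direction were CNKSR2 (0 and 998 reads), CTTN, the gene of the SHANK-binding actin protein cortactin (36 and 495 reads, -4.21), and the glutamate receptor genes GRIA1 (0 and 333) and GRIN2B (1 and 10). DLGAP1, CNKSR2, GRIA1 and GRIN2B reached 10 reads in 1 line only. With 5 reads added BAIAP2 (1.89) and GRIN2B (-1.77) were no longer past the threshold, and on the opposite strand BAIAP2 (1.81) was not either. GRIN2B also has too few reads to be compared at a minimum of 50, as has DLGAP1. DLGAP3 (133 and 324 reads, log2 ratio -1.73) and DLGAP4 (2006 and 2549 reads, -0.79) were lower in REH and not past the threshold. They are named beyond the rule for named genes, as they belong to the family of DLGAP1 and DLGAP2. ARHGEF7, an exchange factor gene, was abundant and not past the threshold (log2 ratio 0.14).

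The list of piccolo and bassoon partners was a selection of 12 genes and not every known partner. All 12 were compared, with 1 (8.33%) higher in REH, 1 (8.33%) higher in 697 and a median log2 ratio of 0.49. PFN2, a profilin that binds piccolo, had 541 and 44 reads (log2 ratio 3.16), and RAPGEF4 had 40 and 123 (-2.05, interval -2.62 to -1.54). The ratio of RAPGEF4 lay at the threshold and was no longer past it without TMM scaling (-1.75), with 5 reads added (-1.95) or on the opposite strand (-1.41). TRIO (log2 ratio -0.98) and the actin-binding DBNL (0.62) were the most abundant of the others. Each of the 4 lists held genes higher in either line, and the medians lay between -0.14 and 0.50, against 0.05 over all genes compared.

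**Figure D5:**
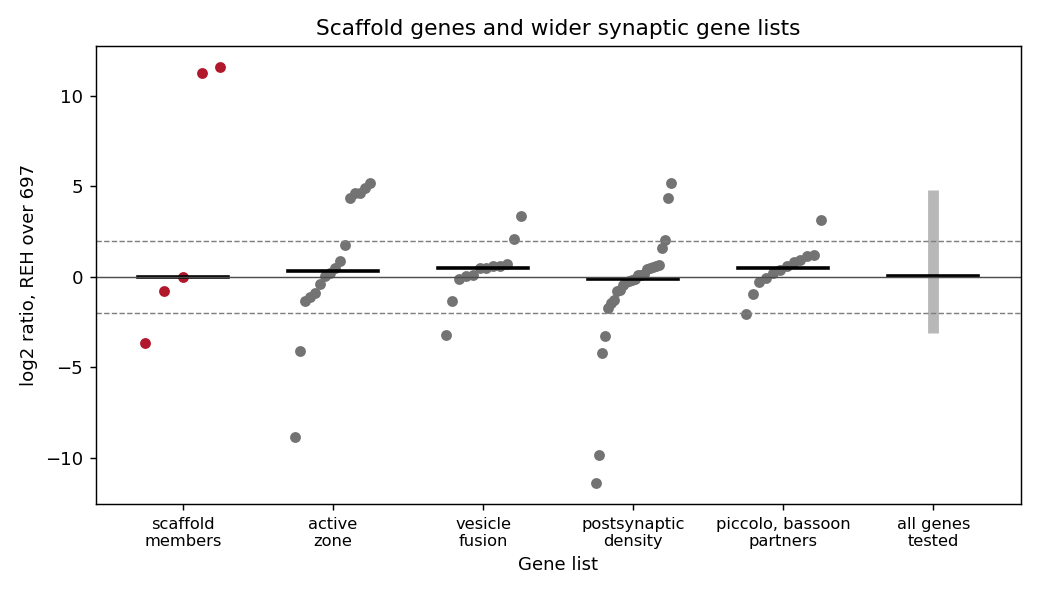
Log2 ratio of REH over 697 for the genes that reached 10 reads, for the scaffold members (red) and the 4 wider synaptic lists (grey points, 1 per gene), with medians as black lines. For all 19145 genes compared the grey band runs from the 5th (-3.08) to the 95th (4.78) percentile, and dashed lines mark the threshold of 2. PCLO and SHANK3 lie above every point of the other lists, but they were chosen by their ratios in these same libraries.

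Markers of other cell types were set beside these values. Of 12 neuronal marker genes 11 were found by their symbol, and their summed level was 80.3 CPM in REH and 1.73 CPM in 697. ELAVL4, which encodes a neuronal RNA-binding protein, made up most of this in REH (77.9 CPM, 3917 reads against 1 in 697). STMN2, NEFM, GAP43, DCX and INA, which mark neurons and their axons, had 0 reads in both libraries. Of the remaining markers in REH, NEFH reached 1.01 CPM and RBFOX3 1.13 CPM, with MAP2, TUBB3 and ELAVL3 at 3 or 4 reads. The summed level of 8 myeloid markers was 253 CPM in REH, nearly all from MPO (252 CPM), and 2.27 CPM in 697. That of the T-cell markers found (7 of 8) was 9.03 and 26.2 CPM, mainly from LCK, and that of 4 erythroid markers was 0.418 and 0.379 CPM. Their part in the levels of PCLO and SHANK3 was not tested, and in bulk RNA a few cells with much of a transcript cannot be told apart from many cells with little.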

How the data were processed

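RNA of REH and 697 cells was sequenced as 1 library per line, and lines were assigned from the labels. The authors deposited raw read counts per gene, made with STAR and not normalized, in 3 columns (either strand, strand of the gene, opposite strand). The column of either strand was used. The study's methods name hg38, whereas the submitters' processing notes name hg19. The annotation release is not given in the sources used here. The labels describe ribodepleted stranded libraries, and the methods describe poly(A) purification. Rows naming no gene were left out. Multimapping reads are not in the counts (10.8% of reads in REH, 15.4% in 697). Ambiguous reads, which fall on overlapping genes, are not in the counts either (4.58% in REH, 4.41% in 697).

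The members and gene lists were chosen with earlier results of these data known. Symbols, positions and exon lengths came from GENCODE 44 on GRCh38 (51996 of 57773 IDs matched), whose lengths may differ from those used in counting. Lists held active zone, vesicle fusion, postsynaptic density and piccolo and bassoon partner genes, and markers of B-lineage, neuronal, T, myeloid and erythroid cells. Named genes were the 9 members, up to 4 called genes per direction and the 2 most abundant uncalled genes of each wider list, the neighbours, and the 3 nearest profiles. Some genes that this rule names are not reported here. For marker lists, genes at 0 and those that made up most of a sum were named after their values were seen.

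Counts were scaled with TMM in edgeR 4.0.16 (R 4.3.3; factors 1.11 and 0.899). Ratios used 0.5 added reads. Intervals are exact Clopper-Pearson at 95%, and PCR duplicates are not independent molecules, so they cover counting error only. The study used DESeq2, which needs replicates. The computation was tested on simulated data with counting error only and without TMM scaling. Only genes with at least 50 expected reads in each library were changed. Genes with few reads in 1 line, such as PCLO and SHANK3, were therefore not covered by it. Alternatives were DESeq2 1.42.0 size factors, unscaled totals, minimums of 1 and 50 reads, 5 added reads, a threshold of 1 and each strand column. As reads fell evenly on both strands, the strand columns hold parts of the same reads and do not measure antisense transcription. The level per longest transcript was added after seeing the data. A comparison of protein sequences was planned and not run. Intervals, tables and figures were made in Python 3.11.15 (scipy 1.17.1, numpy 2.4.6, matplotlib 3.10.9, pandas 2.3.3).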

Additional observations from a re-analysis of the deposited data

How the results depend on the processing

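No paired analysis was possible because REH and 697 have 1 library each, which also leaves no replicate to omit. PCLO, SHANK3 and BSN kept their direction and stayed past the threshold under every alternative run for them, with log2 ratios of 11.19 to 12.13, 10.26 to 11.87 and -4.03 to -3.22. SHANK1 ranged from -0.79 to -0.46. ERC1 ranged from -0.04 to 0.30 and was above 0 without TMM scaling, at a minimum of 50 reads and on the opposite strand. Without scaling the median log2 ratio was 0.30 for the members compared and -0.46 for those other than PCLO and SHANK3, and that of all genes moved from 0.05 to 0.36. At a minimum of 1 read, the number of genes higher in 697 was 4410, including 2 members, the second being RIMS2 (0 and 2 reads), and 2 vesicle fusion genes, and 44.9% of all calls were higher in REH, against 60.6% at a minimum of 10 reads. At a minimum of 50 reads the numbers over all genes were 1477 for REH and 1036 for 697. With 5 reads added, 1 vesicle fusion gene was higher in REH. At a log2 threshold of 1, 4293 genes were higher in REH and 3336 in 697, as were 4 active zone, 2 vesicle fusion and 7 postsynaptic density genes in 697 and 3 piccolo and bassoon partners in REH. No partner (0) was higher in 697 without scaling, with 5 reads added or on the opposite strand. The other counts stayed within 1.5 times. The depth of 1 library per line limits SHANK2, RIMS1, RIMS2 and ERC2, which had too few reads to be compared.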
